A study of Mus musculus with 18 samples.

Results

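CircRNAs in the nuclei of WT NIH/3T3 cells were compared with those in total RNA of the same cells (whole-cell RNA). The 4 libraries were WT nuclear replicates 1 and 2 and WT whole-cell replicates 1 and 2, out of 12 circRNA-seq and 6 mRNA-seq libraries from WT and XPO4 knockout (KO) cells. NIH/3T3 is an established mouse embryonic fibroblast line, the WT cells carry no edited allele, and the KO line, made with CRISPR-Cas9, was used only for a side comparison. All circRNA libraries were treated with RNase R, an exonuclease that removes most linear RNA. Members were chosen by position: every circRNA with a junction read in a WT nuclear library was looked up by chromosome, start and end in the WT whole-cell lists, with absent circRNAs as 0. This gave 1136 nuclear and 10534 whole-cell circRNAs of 16171 listed in any library of the series, and 479 were in both lists, 42.2% of the nuclear and 4.55% of the whole-cell circRNAs.

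A circRNA forms in the nucleus when the spliceosome joins the end of an exon back to the start of the same or an earlier exon. Most exonic circRNAs leave the nucleus and, lacking ends, escape exonucleases and persist in the cytoplasm, while circRNAs that keep intron sequence tend to stay in the nucleus. Whole-cell RNA holds both pools, so a circRNA of nuclei is also part of the RNA from which whole-cell libraries are made.

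Each circRNA was put in a class by its ends on GRCm38. Both ends lay on exon edges of the same annotated gene (exon-edge circRNAs), or at least 1 end did not (off-edge circRNAs), and rows listed under several positions were kept apart. The WT nuclear libraries held 2189 and 2635 junction reads over 1001 and 957 circRNAs, and the WT whole-cell libraries 57780 and 55109 over 9902 and 9907, 23.4 times more reads on average. At the same share of its library, a circRNA with 2 nuclear reads would have 46.8 reads over both whole-cell libraries. A circRNA found only in nuclei would take a smaller share of whole-cell RNA, by a factor that was not measured. The lists were also filtered: each of the 1166 circRNAs listed in a WT or KO nuclear library was in both replicates of at least 1 genotype, and so was each of the 10700 of the whole-cell libraries. The 314 circRNAs with reads in 1 of the 2 WT nuclear libraries were all in both KO nuclear libraries. A value of 0 therefore means "not listed" and not a measured 0, and no lower bound on a fold was taken from it. In the 3 WT mRNA-seq libraries all 9 fibroblast markers had at least 1 FPKM (fragments per kilobase scaled to library depth, from the deposited counts), with sums between 2646 and 2740. Sums of blood, neuron, epithelium, endothelium and adipocyte markers were at most 4.03, although the extraction protocol in the labels names blood samples.

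The sequences at the ends of 7 circRNAs are shown because the classes are defined there. Each stretch is read 5′ to 3′ on the strand of the splice signal, with 12 bases outside and 12 inside the circRNA. In the first 6 circRNAs capitals mark the AG before the first base and the GT after the last base. Hipk3 and Fgfr1 are exon-edge circRNAs in both lists, Zfp827 an exon-edge circRNA in nuclei and in no whole-cell list, and Tnr, Csmd3 and Kmt2d off-edge circRNAs of nuclei. In Sgcz, an off-edge circRNA, capitals mark 9 letters that are the same at both ends.
Hipk3 chr2:104470749-104471847, minus strand, first base: tcttttttgcAGgtatggcctcac
Hipk3, last base: tcgctactacagGTaggcagcaaa
Fgfr1 chr8:25555508-25555774, plus strand, first base: tggctgctgcAGctcagccctggg
Fgfr1, last base: tcaatgtctcagGTtggtagcaat
Zfp827 chr8:79091833-79092066, plus strand, first base: attgttttttAGctgcaaaccaga
Zfp827, last base: tgaaactctcagGTatccgatata
Tnr chr1:159665055-159665437, plus strand, first base: cctttttctcAGttattacattcc
Tnr, last base: taaacactgtatGTattatatgct
Csmd3 chr15:48281931-48282149, plus strand, first base: tcctaagatgAGgaaaaaataaaa
Csmd3, last base: ttatgttgcaggGTaagaatttaa
Kmt2d chr15:98849512-98850354, plus strand, first base: tccaatacctAGagcaagctgctg
Kmt2d, last base: gaggtcatccagGTgggggtcatt
Sgcz chr8:37771153-37771868, plus strand, first base: aatctcagtcagGTTTTTCTTagt
Sgcz, last base: ttttttgtttttGTTTTTCTTttg

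Exon-edge and off-edge circRNAs of WT nuclei differed in how often whole-cell RNA held them. Of 655 exon-edge nuclear circRNAs, 477 (72.8%) were also listed in whole-cell RNA, 453 of them in both whole-cell libraries. Of 474 off-edge nuclear circRNAs, 2 (0.422%) were, and of the 7 rows under several positions none was. With exon edges of basic transcripts only, the off-edge share was 13 of 491 (2.65%). The off-edge class made up 41.7% of the nuclear circRNAs and 0.228% of the whole-cell circRNAs (24 of 10534). Among off-edge nuclear circRNAs, 432 had no end on an exon edge, 39 had 1, and 3 joined exon edges of different genes, and the 2 found in whole-cell RNA were of this last kind. In WT cytoplasmic RNA 454 of the exon-edge and 2 of the off-edge nuclear circRNAs were listed. The KO cells gave like values, with 72.5% of 670 exon-edge and 0.425% of 471 off-edge KO nuclear circRNAs in KO whole-cell RNA. These shares are counts over lists, which the filter ties between genotypes, and were not tested. WT and KO nuclear lists held 651 of the 655 exon-edge and 460 of the 474 off-edge circRNAs in common.

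Exon-edge circRNAs with 5 or more nuclear reads were found more often than rarer ones, while no off-edge circRNA below 10 reads was found. Exon-edge circRNAs with 1 to 2 reads over both nuclear libraries were found in 198 of 284 cases (69.7%), those with 3 to 4 reads in 128 of 194 (66.0%), those with 5 to 9 reads in 95 of 115 (82.6%), and those with 10 or more in 56 of 62 (90.3%). Off-edge circRNAs had as many nuclear reads each, a median of 4 against 3 for exon-edge circRNAs in both lists and 3 for exon-edge circRNAs absent from whole-cell lists. They were also in both WT nuclear libraries as often, 358 of the 472 that whole-cell lists lacked (75.8%) against 335 of 477 exon-edge circRNAs in both lists (70.2%).

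**Figure D1:**
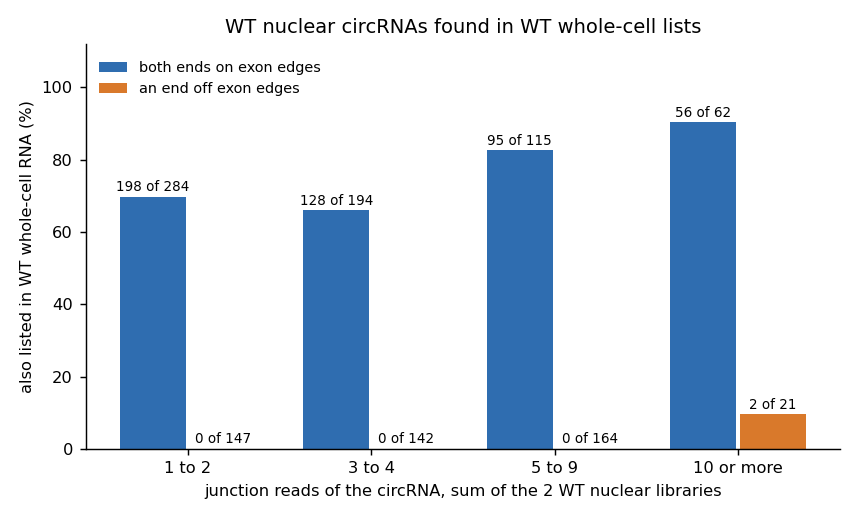
Percent of WT nuclear circRNAs also listed in WT whole-cell RNA (y axis) by their junction reads summed over 2 nuclear libraries (x axis), for circRNAs with both ends on exon edges (blue) and with an end off exon edges (orange), with the counts above each bar. Blue bars run from 66.0% to 90.3%, and the orange class is above 0 only at 10 or more reads, with 2 of 21 circRNAs.

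The reads gave the same picture as the lists. Exon-edge circRNAs took 61.1% and 54.7% of the junction reads in the WT nuclear libraries and 99.6% in both WT whole-cell libraries. Their mean share was 57.9% ± 4.55 in nuclei and 99.6% ± 0.0287 in whole-cell RNA (SD, n = 2 each), a difference of -41.7 percentage points (nucleus minus whole cell). The groups did not overlap, and the two-sided exact permutation test gave p = 0.333, the smallest that 2 against 2 libraries allow. Off-edge circRNAs had 838 and 1159 reads in the nuclear libraries and 203 and 216 in the far deeper whole-cell libraries. Wilson 95% intervals of the exon-edge share were 59.1% to 63.1% and 52.8% to 56.6% in nuclei, and they cover counting error only. CircRNAs also listed in whole-cell RNA took 49.4% and 44.2% of the nuclear reads in WT, and 54.3% and 48.4% in KO nuclei against KO whole-cell lists. These ranges overlapped (WT 46.8% ± 3.66, KO 51.4% ± 4.21, SD, n = 2 each, exact permutation p = 0.667). In the other direction, circRNAs listed in nuclei took 20.3% and 18.3% of the whole-cell reads.

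**Figure D2:**
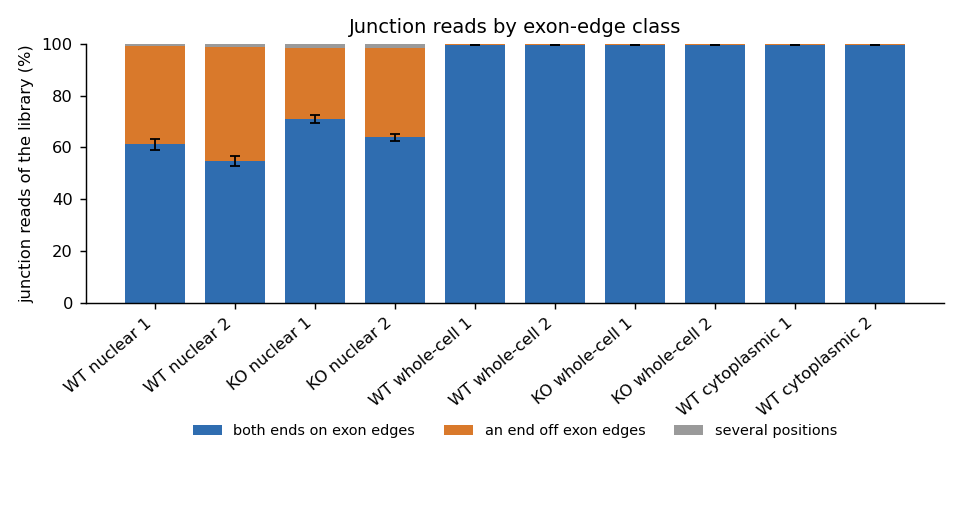
Percent of the junction reads of each library (y axis) in circRNAs with both ends on exon edges (blue), with an end off exon edges (orange) and listed under several positions (grey), with Wilson 95% intervals on the blue share, for 10 libraries (x axis). The 4 nuclear libraries have 54.7% to 71.1% of reads in blue, and the other 6 have at least 99.6%.

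Off-edge circRNAs of nuclei were short and lay mostly within introns or outside genes. The 472 that whole-cell lists lacked had a median genomic span of 241 bp (quartiles 189 and 534.5), against 5663 bp for the 477 exon-edge circRNAs in both lists and 4035.5 bp for the 178 exon-edge circRNAs in nuclei alone. Of these 472, 131 lay in no annotated gene, 227 had both ends in introns of the host gene, 40 had both ends inside exons, and 37 lay within 1 annotated exon. All 472 had AG before the first and GT after the last base on 1 of the strands, as had all exon-edge circRNAs, which is the signal find_circ looks for. For off-edge circRNAs the strand of that signal was often not that of the host gene. Of 301 off-edge circRNAs with a host gene and no end on an exon edge, 129 (42.9%) had the signal on the host's strand and 172 on the opposite strand. With both ends in introns it was 107 of 228 (46.9%), and with both ends inside exons 12 of 40 (30%). For exon-edge circRNAs the match holds by the definition of the class. The 39 with 1 end on an exon edge also matched in all cases, which the splice signal at that edge largely fixes in advance.

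Off-edge circRNAs more often had the same letters at both ends, so that the exact junction could be placed at several positions. At least 6 letters were shared in 85 of 472 (18.0%), as at the ends of Sgcz, against 14 of 477 (2.94%) exon-edge circRNAs in both lists and 3 of 178 (1.69%) in nuclei alone. Over all 474, 15 shared 30 letters or more, with a median span of 15375 bp, and 253 shared at most 2, with a median span of 270 bp. Both ends lay in repeat-masked sequence in 19 of the 472 and at least 1 end in 149 (31.6%), against 83 of 477 (17.4%) for exon-edge circRNAs in both lists. Host genes of off-edge circRNAs were less often expressed as mRNA than those of exon-edge circRNAs, but more often than genes at large. Of all 55401 genes, 22.4% reached 1 FPKM in WT mRNA-seq and 66.2% were under 0.1. Of the 326 hosts of off-edge circRNAs that whole-cell lists lacked, 97 were under 0.1 FPKM. Among these 326, 200 reached 1 FPKM (61.3%), with a median of 4.22 FPKM. The 411 hosts of exon-edge circRNAs in both lists had a median of 9.36 FPKM, 2 were under 0.1, and 394 reached 1 (95.9%). For the 174 hosts of exon-edge circRNAs in nuclei alone the median was 8.95 FPKM, with 160 at 1 or more (92.0%). Column headings inside the mRNA-seq files name the other genotype, and with the 3 libraries titled KO the medians were 4.11, 9.28 and 9.05 FPKM. Shared letters, strand and host mRNA were compared as counts over circRNAs or genes, without a test.

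**Figure D3:**
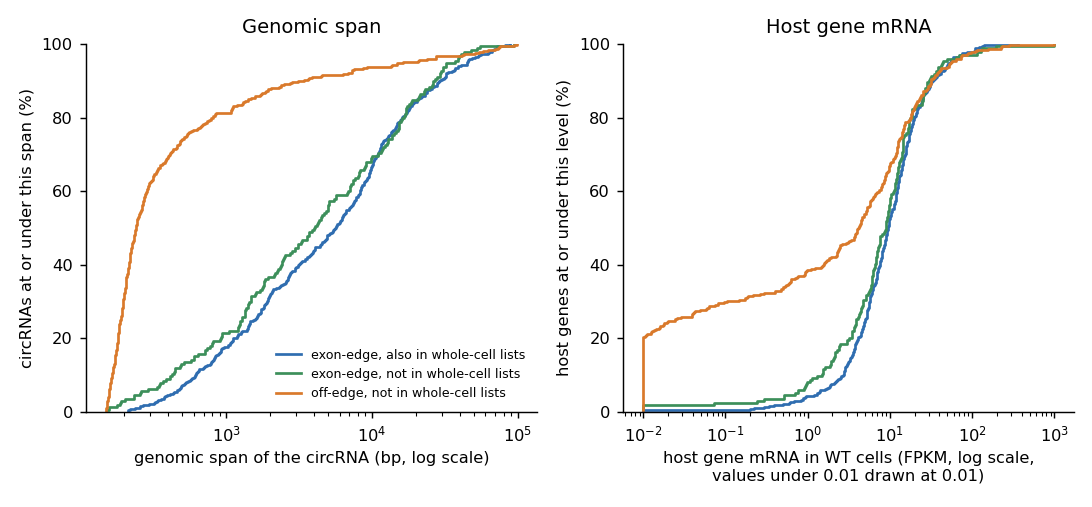
Left, cumulative percent of WT nuclear circRNAs (y axis) by genomic span in bp (log x axis); right, cumulative percent of their host genes by WT mRNA level in FPKM (log x axis, mean of 3 libraries). The off-edge curve (orange) reaches 50% at 241 bp, against 5663 bp for exon-edge circRNAs in both lists (blue) and 4035.5 bp for those absent from whole-cell lists (green), and on the right it starts far higher at the lowest levels.

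Single off-edge circRNAs show the pattern. The Tnr circRNA, 383 bp within introns of the gene of the matrix glycoprotein tenascin R, had 7 and 8 nuclear reads and was in no WT whole-cell or cytoplasmic list. Its host had 0.620 ± 0.0944 FPKM (SD, n = 3). The Csmd3 circRNA, 219 bp within introns, had 3 and 12 nuclear reads and none listed elsewhere in WT, and the host had 0.0194 ± 0.00285 FPKM. Kmt2d encodes a histone H3 lysine methyltransferase, and its off-edge circRNA of 843 bp, with both ends inside exons, had 2 and 10 nuclear reads. Csmd3 and Kmt2d lie on the minus strand, and the splice signals shown above are on the plus strand. The Srrm3 circRNA, chr5:135855785-135857550, had 3 and 8 nuclear reads. A pair of circRNAs in no gene, chr5:14383063-14383295 and chr7:118067146-118067313, had 4 and 7 nuclear reads each. None of these 6 was in a WT whole-cell list. Equal shares would give between 257 and 351 whole-cell reads, but circRNAs found only in nuclei would have fewer, by an unmeasured factor. In KO nuclei these 6 had between 0 and 3 reads in each library.

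The 2 off-edge circRNAs that whole-cell RNA held joined exon edges of neighbouring genes. The first, chr10:22285691-22307298, ran from an exon edge of H60b, which encodes a ligand of the natural killer receptor NKG2D, to an exon edge of C920009B18Rik. It had 10 and 8 nuclear, 94 and 94 whole-cell and 45 and 45 cytoplasmic reads. The second, chr1:173912814-173977437, spanned 64624 bp between exon edges of Ifi211 and Ifi202b, 2 interferon-inducible genes. It had 2 and 16 nuclear and 21 and 22 whole-cell reads and was in no WT cytoplasmic list. The last of this kind, between Mrps6 and Gm49711, had 2 and 0 nuclear reads, none in whole-cell lists and 2 and 1 cytoplasmic reads. A row under several positions repeated the Ifi211 to Ifi202b circRNA with the same 2 and 16 nuclear reads, and another repeated an exon-edge circRNA of Kat6b with 3 and 12, so these reads stand in the nuclear lists under 2 entries.

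The 477 exon-edge circRNAs in both lists and the 2 of neighbouring genes carried 46.6% of the nuclear and 19.3% of the whole-cell reads. In whole-cell RNA they had a median of 18 reads over both libraries, against 8 for whole-cell circRNAs absent from nuclei. Their nuclear and whole-cell levels were weakly related. Across these 479 circRNAs Spearman's rho was between 0.0941 and 0.179 for nuclear with whole-cell libraries, 0.457 between the nuclear replicates, 0.880 between the whole-cell replicates, and between 0.676 and 0.759 for whole-cell with cytoplasmic libraries. These are descriptions over circRNAs with a median of 3 nuclear reads, which limits any correlation. The median log2 ratio of the nuclear to the whole-cell share was 1.96 (quartiles 0.55 and 2.96), which the detection of at least 1 read in the shallower libraries raises.

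Tests of single circRNAs used edgeR's quasi-likelihood test on counts scaled by library totals, with at least 10 reads over the 4 libraries and Benjamini-Hochberg adjustment. Of 4055 circRNAs tested, 111 were higher in the nucleus (2.74%) and 21 in whole-cell RNA (0.518%) at an adjusted p under 0.05. Of the 655 exon-edge nuclear circRNAs 436 were tested, 6 of them only through their nuclear reads. Of the 474 off-edge ones 21 were tested, 19 of them only through their nuclear reads. The 2 rows tested under several positions also passed the filter only in this way. All 6, all 19 and the 2 rows were called higher in the nucleus, which follows from the filter. In the other direction 3588 exon-edge circRNAs tested had no nuclear entry, and 16 of the 21 calls were among them. The test took their missing entries as 0 reads, although 0 here means not listed. Being in both lists takes at least 1 read in the shallower nuclear libraries, which favours calls toward the nucleus. Of the 430 exon-edge circRNAs tested that were in both lists, 83 were called higher in the nucleus. These calls depended on the scaling: with TMM normalization no circRNA passed in either direction, although 73 were higher in the nucleus and 726 in whole-cell RNA at an unadjusted p under 0.05, and DESeq2 gave 44 and 85. Leaving out WT nuclear replicate 1 left 35 and 5 calls, and leaving out WT nuclear replicate 2 left 28 and 1.

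The exon-edge circRNA with most nuclear reads was exon 3 of Fgfr1, a fibroblast growth factor receptor. It had 29 and 21 nuclear reads (1.32% and 0.797% of the library) and 60 and 51 whole-cell reads (0.104% and 0.0925%). All nuclear shares lay above all whole-cell shares, 10.5-fold over the summed reads (log2 3.41 ± 0.34, SE, edgeR adjusted p = 2.02e-20). The circRNA of exons 3 to 4 of Tcf25, chr8:123382527-123383443, had 20 and 19 nuclear against 25 and 16 whole-cell reads, a share 22.3-fold higher in the nucleus (log2 4.47 ± 0.38, edgeR adjusted p = 1.29e-28). Slc30a7, a zinc transporter of the secretory pathway, had 13 and 10 nuclear and 17 and 4 whole-cell reads in the circRNA of exons 6 to 8, 25.6-fold higher in the nucleus (log2 4.67 ± 0.49, edgeR adjusted p = 6.15e-19). For all 3 the shares did not overlap. They were picked for many nuclear reads, Fgfr1 and Tcf25 also for a small p toward the nucleus. Their folds, shares and p-values come from those same reads and give no separate support. These sizes rest on the scaling by library totals. DESeq2 gave log2 differences of 1.50 for Fgfr1, which did not pass (adjusted p = 0.0705), 2.57 for Tcf25 (adjusted p = 0.00327) and 2.77 for Slc30a7 (adjusted p = 0.0143), and TMM gave 1.51, 2.58 and 2.77, with no call.

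Among the 8 exon-edge circRNAs with most nuclear reads, Hipk3, Med13l, Setbp1 and Tulp4 had the most whole-cell reads, and their differences were smaller and turned on the scaling. The circRNA of Hipk3 exon 2, among the best studied exonic circRNAs, had 12 and 13 nuclear reads (0.548% and 0.493%) and 161 and 90 whole-cell reads (0.279% and 0.163%), 2.33-fold higher in the nucleus (log2 1.23 ± 0.38, edgeR adjusted p = 0.0438). This call was lost when any 1 of the 4 libraries was left out, and its sign turned under TMM (log2 -0.66) and DESeq2 (log2 -0.69). Exon 2 of Med13l, a subunit of the Mediator kinase module, had 11 and 11 nuclear and 77 and 45 whole-cell reads (log2 2.08 ± 0.40, edgeR adjusted p = 1.21e-05), a call lost without WT whole-cell replicate 2 (log2 1.78) and with TMM (log2 0.19), TMMwsp (log2 0.44) and DESeq2 (log2 0.17). Exon 2 of Setbp1 had 17 and 15 nuclear and 181 and 180 whole-cell reads, and did not pass (log2 1.06 ± 0.37, edgeR adjusted p = 0.118), with the sign turned under TMM (-0.83), TMMwsp (-0.59) and DESeq2 (-0.85). A circRNA of the tubby-like gene Tulp4, chr17:6137211-6139156, had 11 and 9 nuclear and 417 and 266 whole-cell reads, with a log2 difference of -0.53 ± 0.43 (edgeR adjusted p = 0.391). It passed with TMMwsp (log2 -2.18, adjusted p = 0.00871) and DESeq2 (log2 -2.45, adjusted p = 0.00267), while TMM gave -2.43 without a call and exon-edge circRNAs alone gave 0.25.

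**Figure D4:**
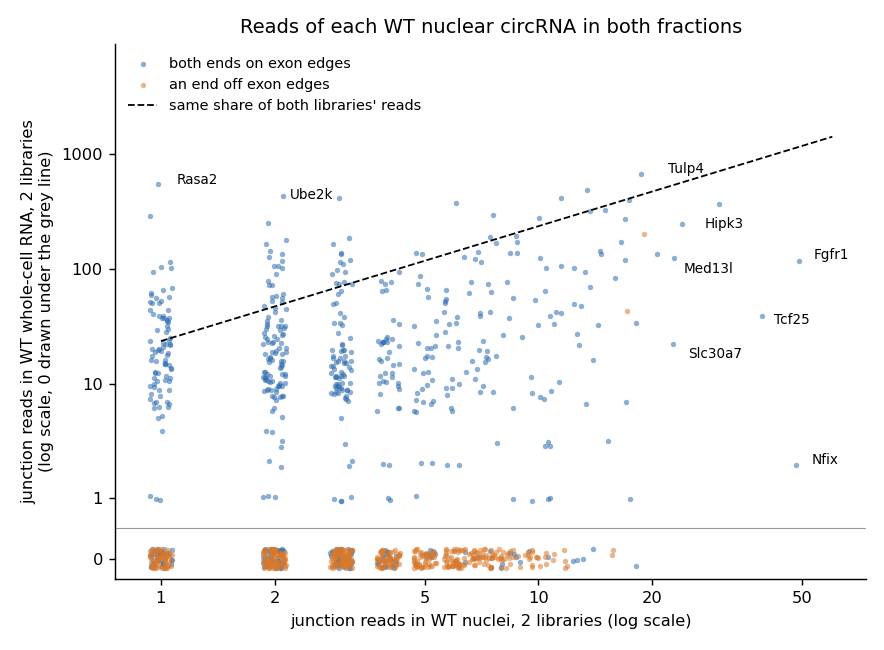
Junction reads of each WT nuclear circRNA summed over 2 nuclear (log x axis) and 2 whole-cell libraries (log y axis, 0 under the grey line), slightly spread so that points can be told apart; blue circRNAs have both ends on exon edges, orange ones an end off exon edges, and the dashed line marks the same share in both. Off-edge circRNAs lie at 0 whole-cell reads but for 2. Exon-edge circRNAs spread widely and lie mostly below the line, with Fgfr1, Tcf25, Slc30a7 and Nfix far below it. Of the 479 circRNAs in both lists, 397 had the higher share in nuclei and 82 in whole-cell RNA. The need for at least 1 nuclear read raises the first count.

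The circRNA of exon 2 of Nfix, a nuclear factor I transcription factor, differed most between libraries. It had 5 and 43 nuclear reads, 2 and 0 whole-cell reads and 1837 and 1871 cytoplasmic reads in WT, while KO whole-cell RNA had 681 and 677. In WT the whole-cell lists thus held fewer reads than either fraction, and whether they are complete for this circRNA could not be told. The difference passed (edgeR adjusted p = 7.72e-60, highest over 12 alternatives 0.145) against these 2 whole-cell reads. Of the 129 circRNAs with at least 100 cytoplasmic reads over both WT libraries, 3 had no whole-cell read and 5 had fewer than 10, while the median was 109.

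Exon-edge circRNAs of nuclei that whole-cell lists lacked numbered 178, with 269 and 300 nuclear reads in all. WT cytoplasmic lists held 46 of them and KO whole-cell lists 3, and 132 were in neither the WT whole-cell nor the WT cytoplasmic lists. In 131 (73.6%) the host gene had another circRNA in whole-cell RNA. An exon edge was shared with a whole-cell circRNA at 1 end in 60 and at both ends, from different circRNAs, in 13, and 105 shared none. Their spliced length had a median of 362 nt (quartiles 256 and 567), against 400.5 nt for those in both lists and 527.5 nt for whole-cell circRNAs absent from nuclei. The first exon of the circRNA was exon 2 of its transcript in 34 of 177 (19.2%), against 194 of 470 (41.3%) in both lists and 29.3% of those in whole-cell RNA alone. A lone exon made up 9.60%, 11.5% and 4.06% of the 3 sets, and their spliced sequences had a median GC content of 50.1%, 49.1% and 47.8%.

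Among these, 4 with many nuclear reads had reads in both nuclear libraries. Exons 2 to 3 of Ccn5, a matricellular protein, at chr2:163821289-163825357, had 4 and 10 nuclear reads. Exons 2 to 4 of Tasp1, the protease taspase 1, at chr2:140042094-140057499, had 3 and 10, exon 5 of the zinc finger gene Zfp827 8 and 5, and exons 6 to 7 of Brca2, a homologous recombination gene, at chr5:150532055-150532402, 7 and 5. These 4 were in no WT whole-cell or cytoplasmic list, and all 4 were in both KO nuclear libraries. Equal shares would give between 281 and 328 whole-cell reads, but circRNAs found only in nuclei would have fewer, by an unmeasured factor.

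Seen from whole-cell RNA, circRNAs were found in nuclei the more often the more reads they had. Exon-edge circRNAs with 1 to 4 whole-cell reads over both libraries were in a nuclear list in 40 of 3141 cases (1.27%), those with 20 to 49 in 113 of 625 (18.1%), those with 50 to 99 in 55 of 118 (46.6%), and those with 100 or more in 58 of 79 (73.4%). At equal shares a circRNA of this last group would have a median of 6.11 nuclear reads. Together these 79 had 524 nuclear reads where equal shares would give 641, and circRNAs with 10 to 19 whole-cell reads had 407 where they would give 1672. Nuclear reads of circRNAs that the filter left out are not in these sums.

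The whole-cell circRNAs with most reads and no nuclear entry were those of exons 5 to 8 of Dtnb, the dystrobrevin beta gene (chr12:3617606-3648389), exons 2 to 3 of Fryl, exons 2 to 5 of the ubiquitin ligase gene Ankib1, exons 6 to 7 of the mannosyltransferase gene Alg12, and exons 2 to 4 of Uck2, a uridine-cytidine kinase. Dtnb had 156 and 152 whole-cell reads, where an equal share would give 13.2 nuclear reads. Fryl had 137 and 74, Ankib1 102 and 88, Alg12 94 and 87, and Uck2 95 and 71, where equal shares would give 7.09 to 9.02 nuclear reads. All 5 were picked for having no nuclear entry, so no test is given for them. Alg12 was the exception in KO nuclei, with 7 and 6 reads, and the other 4 were absent there too. The circRNA with the smallest p toward whole-cell RNA was that of exons 2 to 5 of Rasa2, a Ras GTPase-activating protein. It had 1 and 0 nuclear and 294 and 254 whole-cell reads (23.4 nuclear reads at an equal share, edgeR adjusted p = 7.74e-06). Ube2k, a ubiquitin-conjugating enzyme, had 1 and 1 against 224 and 198 (18.0 at an equal share, edgeR adjusted p = 0.00076), and Vapa, an endoplasmic reticulum membrane protein, 1 and 0 against 143 and 133 (11.8 at an equal share, edgeR adjusted p = 0.00276). The calls of Ube2k and Vapa were lost without WT nuclear replicate 2. That both whole-cell shares lay above both nuclear shares in each of these 8 comes with how they were picked. Rasa2, Ube2k and Vapa were picked for a small p, so their p-values give no separate support. For Rasa2 and Vapa the tests also took the missing entry in WT nuclear replicate 2 as 0 reads.

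Specc1, Wwc1 and Adarb1, which with Hipk3 and Nfix were imaged in these cells, had few or no circRNA reads here. The most abundant circRNA of Specc1, exons 8 to 12, had 13 and 9 whole-cell and no nuclear reads, that of Wwc1, exons 16 to 18, had 4 and 4 whole-cell and no nuclear reads, and Adarb1 had none in these 4 libraries. At these depths no difference was detectable for them.

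**Figure D5:**
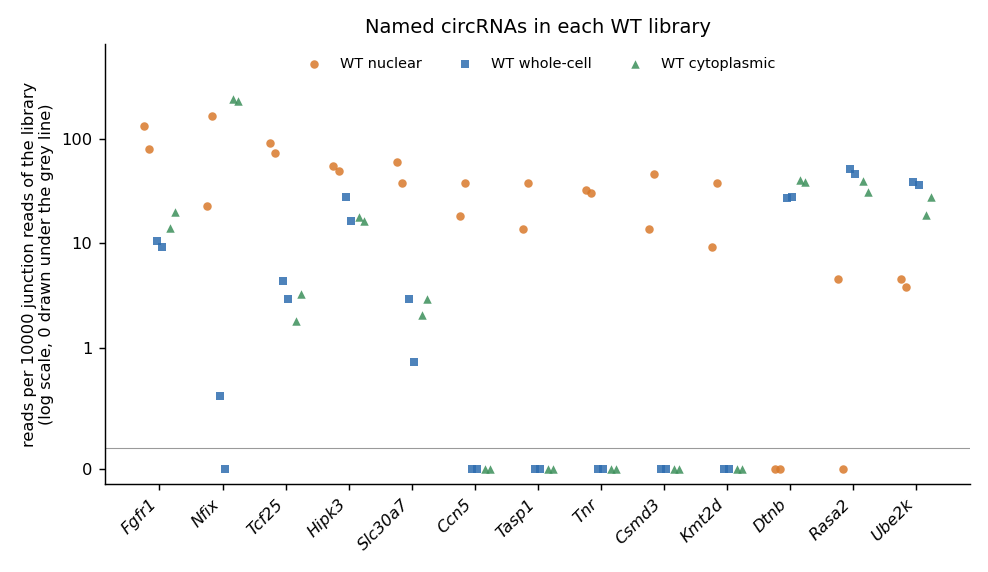
Reads per 10000 junction reads (log y axis, 0 under the grey line) of 13 named circRNAs (x axis) in each WT nuclear (orange circles), whole-cell (blue squares) and cytoplasmic library (green triangles). Nuclear values stand above whole-cell ones from Fgfr1 to Kmt2d and below them from Dtnb to Ube2k. The circRNAs were picked by the reads or test results of these nuclear and whole-cell libraries, which largely sets this order. For Nfix the cytoplasmic values stand far above the whole-cell ones.

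Host genes showed the same split by class, which in part restates that of the circRNAs. Nuclear circRNAs had 850 host genes and whole-cell circRNAs 3884, 615 genes hosted circRNAs in both, and 413 hosted the same circRNA in both. Of the 557 hosts of exon-edge nuclear circRNAs 511 (91.7%) had a whole-cell circRNA, and of the 328 hosts of off-edge ones 136 (41.5%). For scale, the 3884 hosts of whole-cell circRNAs stand against 55401 genes counted in mRNA-seq, of which 12417 reached 1 FPKM in WT. Whether either share differs from that of genes with like mRNA levels was not tested. Both kinds came from 35 genes in nuclei. Most nuclear hosts, 736, had 1 nuclear circRNA, and 26 had 3 or more. Tasp1 had the most, 5, and Tulp4, Gas2 and Zfp827 had 4 each, all of them exon-edge circRNAs. Whole-cell RNA held all 4 of Tulp4 and of Gas2, 4 of the 5 of Tasp1 and 3 of the 4 of Zfp827. In Tasp1, 4 of the 5 nuclear circRNAs started at exon 2 and ended at exon 4, 5, 7 or 8, and the 1 ending at exon 4 was the 1 that whole-cell and cytoplasmic lists lacked, while that ending at exon 8 had 2 and 5 nuclear and 64 and 61 whole-cell reads. In Gas2, which encodes a growth arrest-specific cytoskeletal protein, all 4 started at exon 2.

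Reads summed per host gene were tested in the same way. Of 2602 host genes tested, 125 were higher in the nucleus (4.8%) and 72 in whole-cell RNA (2.77%) by edgeR. With TMM the counts were 77 and 595, with DESeq2 43 and 103, without WT nuclear replicate 1 they were 61 and 14, and without WT nuclear replicate 2 they were 33 and 2. Of the 125, 11 had no whole-cell reads, all 11 such genes tested, so that these calls follow from the filter. Of the 72, 58 had no nuclear reads, as had 2013 of all 2602 tested, and missing entries were again taken as 0 reads. The 5 with the smallest p toward the nucleus were Nfix, Tcf25, Csmd3, Tnr and Fgfr1, of which Csmd3 and Tnr passed the filter only through their nuclear reads, and Nfix stands against the few whole-cell reads given above. Fgfr1 had 29 and 21 nuclear and 84 and 70 whole-cell reads (log2 2.93 ± 0.31, edgeR adjusted p = 6.21e-19), and Nfix 5 and 44 against 10 and 13. Toward whole-cell RNA they were Ube2k, Dtnb, Rasa2, Fryl and Ttc3, a ubiquitin ligase gene. Dtnb had 1 and 3 nuclear reads against 291 and 282 from 19 whole-cell circRNAs (log2 -2.61 ± 0.58, edgeR adjusted p = 0.000304), and Ttc3 no nuclear reads against 132 and 94. Tasp1, with 11 and 26 nuclear and 121 and 131 whole-cell reads, was higher in the nucleus (log2 1.77 ± 0.32, edgeR adjusted p = 3.1e-06), a call lost without WT nuclear replicate 2 (log2 1.17) and with TMM (0.69), TMMwsp (0.74) and DESeq2 (0.64). By contrast Gas2 had 4 and 6 against 217 and 221 and did not pass (log2 -0.90 ± 0.46, edgeR adjusted p = 0.227), but passed with TMM (log2 -1.99, adjusted p = 2.61e-05), TMMwsp (log2 -1.93) and DESeq2 (log2 -2.03, adjusted p = 0.0185).

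Among 24 host genes of well-studied circRNAs, 18 had whole-cell and 12 nuclear circRNAs. They had 18 nuclear circRNAs, of which 16 were also in whole-cell RNA and 1, of Birc6, was off-edge. Over the 11 hosts with reads in both, the median log2 ratio of the nuclear to the whole-cell share was -0.41, from -1.99 to 1.83. No such median over all host genes is given here. The median given above for single circRNAs in both lists is not a like measure. Foxo3, a forkhead transcription factor, had 1 and 2 nuclear, no whole-cell and 7 and 7 cytoplasmic reads. Pvt1, a long noncoding RNA gene, had 1 and 14 nuclear, 49 and 50 whole-cell and 889 and 889 cytoplasmic reads. Ankrd17, Camsap1, Elf2, Fbxw7, Man1a2 and Zfp609 had whole-cell circRNAs and none in nuclei, with 1 to 82 whole-cell reads in each library.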

How the data were processed

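CircRNA-seq measured backsplice junction reads in nuclear, cytoplasmic and whole-cell RNA of NIH/3T3 cells after RNase R digestion and rRNA removal. Per the study's methods the authors trimmed reads with cutadapt and ran find_circ, and they deposited whole-number counts of junction reads per circRNA, without normalization, on mm10 (the submitters' processing notes name mm10 and HISAT2). For mRNA-seq they deposited counts per gene, from which FPKM were computed here. The methods say that circRNAs found in both replicates were merged, and other filters on the lists are not given in the sources used here. Depth was 2189 to 2635 junction reads in WT nuclei and 55109 to 57780 in whole-cell RNA, without molecular identifiers, so intervals cover counting error only.

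Ends were compared with exon edges of GENCODE M21 and sequences were read from the RefSeq GRCm38 genome. Starts are given 1-based. The host gene was that with both edges, else one holding both ends, else 1 end, with protein-coding genes preferred, and exon numbers follow the transcript holding both edges (basic preferred, then the longest circRNA). Shared letters were counted up to 60 on each side.

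Single circRNAs and sums per host gene were tested with edgeR 4.0.16 (R 4.3.3; glmQLFit, glmQLFTest) on 2 against 2 libraries, scaled by total junction reads, with at least 10 reads in all and Benjamini-Hochberg adjusted p under 0.05. Standard errors are the log2 difference divided by the square root of the F statistic. The study used DESeq2 for nucleus against cytoplasm, and DESeq2 1.42.0 was an alternative here. Shares of reads were compared by exact permutation tests (Python 3.11.15, SciPy 1.17.1). The fits were also run on simulated counts with planted changes and the same dispersion for every circRNA or gene. Those counts cannot show which scaling is right for these libraries. Replicates are those of the labels, nothing says that they came from separate cultures, and p-values may measure technical spread. Same-numbered libraries deviated from their group means with a correlation of 0.0521 over 432 circRNAs, and the labels name no shared preparation, so the numbers were not taken as pairs.

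CircRNAs named were: the most abundant of each imaged host; the 8 with the highest mean nuclear reads in each class; the 5 exon-edge ones with most nuclear reads outside whole-cell lists and with most whole-cell reads outside nuclear lists; off-edge ones in whole-cell lists; the 5 smallest p in each direction, for hosts too; and the 5 hosts with most nuclear circRNAs. The circRNAs of Sgcz, Kat6b, Mrps6, Foxo3 and Pvt1 were chosen after their values were seen or stand on a list of well-studied hosts. Some items that the rule names are not reported here. Members and lists were chosen with earlier results of these data known. Alternatives covered scaling, tool, filter, block, list and edge rules and each library left out.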

Additional observations from a re-analysis of the deposited data

Results flagged for a closer look

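Cytoplasmic RNA, which the comparison of nuclei with whole-cell RNA did not use, held circRNAs that whole-cell lists lacked. WT cytoplasmic lists held 46 of the 178 exon-edge nuclear circRNAs absent from WT whole-cell lists. The Nfix circRNA, with 2 and 0 WT whole-cell reads, had 1837 and 1871 cytoplasmic reads.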

How the results depend on the processing

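The 111 circRNAs called higher in the nucleus and the 21 called higher in whole-cell RNA changed with most settings. They became 0 and 0 with TMM (73 and 726 at an unadjusted p under 0.05), 48 and 78 with TMMwsp, 10 and 2405 without scaling, 44 and 85 with DESeq2, and 542 and 13 without a filter on low counts. At least 20 reads left 44 higher in the nucleus. Among exon-edge circRNAs alone, a setting added after the data were seen, 4 were higher in whole-cell RNA, and with TMM as well the counts were 0 and 0. Leaving out 1 library gave 28 to 106 and 1 to 30, the lowest without WT nuclear replicate 2. For host genes the 125 and 72 calls became 77 and 595 with TMM, 78 and 543 with TMMwsp, and 5 and 2226 without scaling. The first count was 43 with DESeq2, 324 without a filter and 83 with at least 20 reads. Exon-edge circRNAs alone gave 7 host genes higher in whole-cell RNA, and with TMM 44 and 485, and leaving out 1 library gave 33 to 105 and 2 to 78. With the replicate number as a block, 70 and 4 circRNAs and 0 and 0 host genes passed (161 and 134 host genes at an unadjusted p under 0.05), but the numbers were not shown to pair the libraries. A lone library left in a group was assumed to vary like the other group.

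The share of exon-edge nuclear circRNAs also in whole-cell RNA, 72.8%, was 73.3% for circRNAs in both nuclear libraries and 69.2% for those in both whole-cell libraries, and 70.5% to 73.2% without 1 library. The off-edge share, 0.422%, was 0.556% for circRNAs in both nuclear libraries, 2.65% (13 of 491) with exon edges of basic transcripts only, and 0.422% to 0.498% without 1 library. The difference in the reads of exon-edge circRNAs was -44.9 to -38.5 percentage points without 1 library, and that between WT and KO -7.54 to -1.59.

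Among single circRNAs and host genes named, 358 values kept direction and side of the threshold, 111 no longer passed, 17 newly passed and 28 changed sign, whether or not they passed. Hipk3 changed to a log2 difference of -0.66 with TMM, -0.41 with TMMwsp, -3.31 without scaling, -0.69 with DESeq2 and -0.68 with exon-edge circRNAs alone and TMM. In the same order Setbp1 changed to -0.83, -0.59, -3.49, -0.85 and -0.85, and the host gene Zfp827 to -0.60, -0.54, -4.04, -0.62 and -0.45. The circRNA from H60b to C920009B18Rik changed to -0.72, -0.47, -3.37 and -0.74 under the first 4 of these. With exon-edge circRNAs alone Tulp4 changed to 0.25 and its host gene to 0.047. Without scaling the sign also changed for the circRNAs of Fgfr1 (-1.15), Tcf25 (-0.072), Med13l (-2.46) and Ifi211 to Ifi202b (-1.24), and for the host genes Tcf25 (-0.072), Fgfr1 (-1.62) and Tasp1 (-2.76). That setting ignores the 23.4-fold gap in depth. In the other cases the cause was not tested. A median of 2 reads per listed circRNA in the nuclear libraries limits every comparison of single circRNAs.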
